A study of Mus musculus with 6 samples.

Results

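The genes described here encode membrane carriers for sugars, amino acids and monocarboxylates. They were followed in monocytes and macrophages taken from mouse bone marrow with magnetic separation. Members were all array probes whose platform symbol starts with Slc1a, Slc2a, Slc3a, Slc6a, Slc7a, Slc16a, Slc36a, Slc38a or Slc43a followed by a number. Slc2a1, Slc2a3, Slc16a1, Slc16a3 and Slc7a11 were left out of the set. This gave 153 of the 45281 probes on the array, for 78 of the 19057 platform symbols. By their letters alone 3 probes of Slc7a6os and Slc2a4rg-ps also came in, and these are not known as carriers.

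Solute carriers set which nutrients a cell can take up or release. The Slc2 family carries hexoses, and the Slc16 family carries lactate, ketone bodies, aromatic amino acids and related acids. Several Slc7 light chains reach the cell surface with the heavy chain CD98, encoded by Slc3a2, and exchange one amino acid for another. Glutamine enters through members of the Slc1 and Slc38 families. Members of Slc36 and Slc38 also sit on the lysosome, where amino acid levels are read by the growth kinase complex mTORC1. In macrophages arginine, glutamine and glucose supply feed the activation programmes of the cell, and in red cell precursors glycine and other amino acids supply haem and globin.

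All mice were BALB/c Rag2-/-γc-/- animals aged 11 weeks, a background without T, B and NK cells in which human cells can engraft. The MEC1 group (mice D, E and F) had received MEC1 cells, a human chronic lymphocytic leukaemia B cell line, through a vein, and the control group (mice A, B and C) had received nothing. Both groups carry the same deletions, the titles give 21 days for both, and the series describes the leukaemia as early. Each mouse gave 1 single-colour bead array, so each group has n = 3.

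The arrays of the MEC1 mice were dimmer and varied more. Median raw intensity was 114 to 131 in control mice and 70.7 to 87.6 in MEC1 mice, and 34.3% to 37.5% of all probes were detected per array. Mouse D had a value more than 1 log2 unit below all the other arrays at 793 of 16460 tested probes and mouse E at 252, against 0 to 22 for the other mice. Of 12 monocyte and macrophage markers 10 had a named probe, and each was detected on at least 5 of the 6 arrays. Among these Fcgr1 was called higher and Lyz2 lower in MEC1 mice, 8 of the 10 lay below 0, and the median log2 change was -0.36. Summed intensity over the 10 was 67845 to 70721 in control mice and 55659 to 57536 in MEC1 mice. Of 12 tested neutrophil markers Prtn3 was called higher and 7 lay above 0, and the summed intensity of the 13 named was 159872 to 181307 against 181599 to 185966. All 3 tested eosinophil markers lay above 0 (median log2 change 0.54), as did 4 of 5 for stroma and endothelium (median 0.41). For megakaryocytes 2 of 3 lay above 0 (median 0.22), and for basophils and mast cells 1 of 4 (median -0.15). None of the markers in these 4 lists was called. The part of these shifts in the values below was not tested. Of 12 erythroid markers 9 had a named probe and 7 were tested. Their intensities, summed over the 9 probes, were 71151 to 87332 in control mice and 34092 to 62015 in MEC1 mice, with Epb42 and Rhd detected on no array. Such sums weigh the brightest probes most. Among the erythroid markers the brightest was Hba-a1, with a log2 intensity of 15.47 on each control array, and among the monocyte and macrophage markers Lyz2, then Ly6c1. Quantile normalization gives probes of equal rank the same value, so the identical values of Hba-a1 reflect its rank and not an equal measured level. Of 5 named B lineage markers Pax5, Ms4a1 and Igll1 were detected on no array and Vpreb1 on 2 control arrays, while Cd79b was detected on all 6 and gave a log2 change of -0.02. In such mixed preparations, fewer cells of a type and less RNA per cell cannot be told apart. Probe sequences were not examined, so binding of human MEC1 RNA to the mouse probes was not tested. The control arrays lie at the first positions of the chip and the MEC1 arrays at the last, so position and group cannot be told apart.

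Most of these carriers gave no usable signal in the marrow cells. A probe counted as detected when its detection p-value, its rank among the negative controls of its array, was under 0.05. Of the 153 probes 89 were detected on no array, 12 on 1 or 2 arrays, and 29 on all 6. At least 3 detected arrays were required for a test, which left 52 probes of 32 symbols, or 34.0% of the members, beside 36.4% of all probes. For 38 symbols no probe was detected on any array. These were not well above background, which gives only an upper bound. They include the glucose carrier Slc2a2 and the fructose carrier Slc2a5, the glial glutamate carriers Slc1a2 and Slc1a3, the serotonin and dopamine carriers Slc6a4 and Slc6a3, the creatine carrier Slc6a8, the cystine carrier subunit Slc7a9 and the monocarboxylate carriers Slc16a7 and Slc16a8. Slc7a5 had no named probe and was not analysed here.

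Detection was also uneven for carriers of arginine and lysine. The 5 probes of Slc7a2, a cationic amino acid carrier, were detected on 1 array between them. Slc7a1, the constitutive cationic amino acid carrier, was detected at 1 probe on 2 MEC1 arrays and on no control array. Its log2 intensities there were 5.0, 5.11 and 5.2 for mice A, B and C of the control group, against 5.92, 5.16 and 7.04 for mice D, E and F of the MEC1 group. Mouse F was the high one, and the groups overlapped. The insulin-responsive glucose carrier Slc2a4 was detected on 2 control arrays and no MEC1 array, with values of 5.30, 5.68 and 5.89 against 5.51, 5.50 and 5.52. These probes were too seldom detected to be tested.

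None of the 52 tested probes passed the test between MEC1 and control mice. The test was limma on normalized log2 intensities, with p-values adjusted over all 16460 tested probes and a call at an adjusted p under 0.05. Over all tested probes 1.54% were called, 0.869% higher and 0.668% lower, so a count of 0 among 52 probes lies near the background. The lowest adjusted p among the members was 0.122. At an unadjusted p under 0.05 there were 9 members, 4 higher and 5 lower, or 17.3%, beside 19.8% of all tested probes (10.2% higher and 9.67% lower). The groups did not overlap at 13 members, 5 higher and 8 lower in MEC1 mice, or 25.0%, beside 27.7% of all tested probes (14.4% higher and 13.3% lower). The median log2 change was -0.13 over the members and -0.02 over all tested probes, and 20 members were above 0 and 32 below, or 38.5% above beside 48.0% of all tested probes. Without mouse D the medians were -0.03 over the members and -0.03 over all tested probes, and with array weights -0.04 and -0.03. When any other single mouse was left out, they were -0.17 to -0.10 over the members and -0.03 to 0.01 over all tested probes. Log2 changes ran from -1.18 to 0.88. The median SD between mice of a group was 0.22 for controls and 0.36 for MEC1 mice, and the MEC1 group had the larger SD at 41 of the 52 probes, or 78.8%, beside 76.1% of all tested probes.

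**Figure D1:**
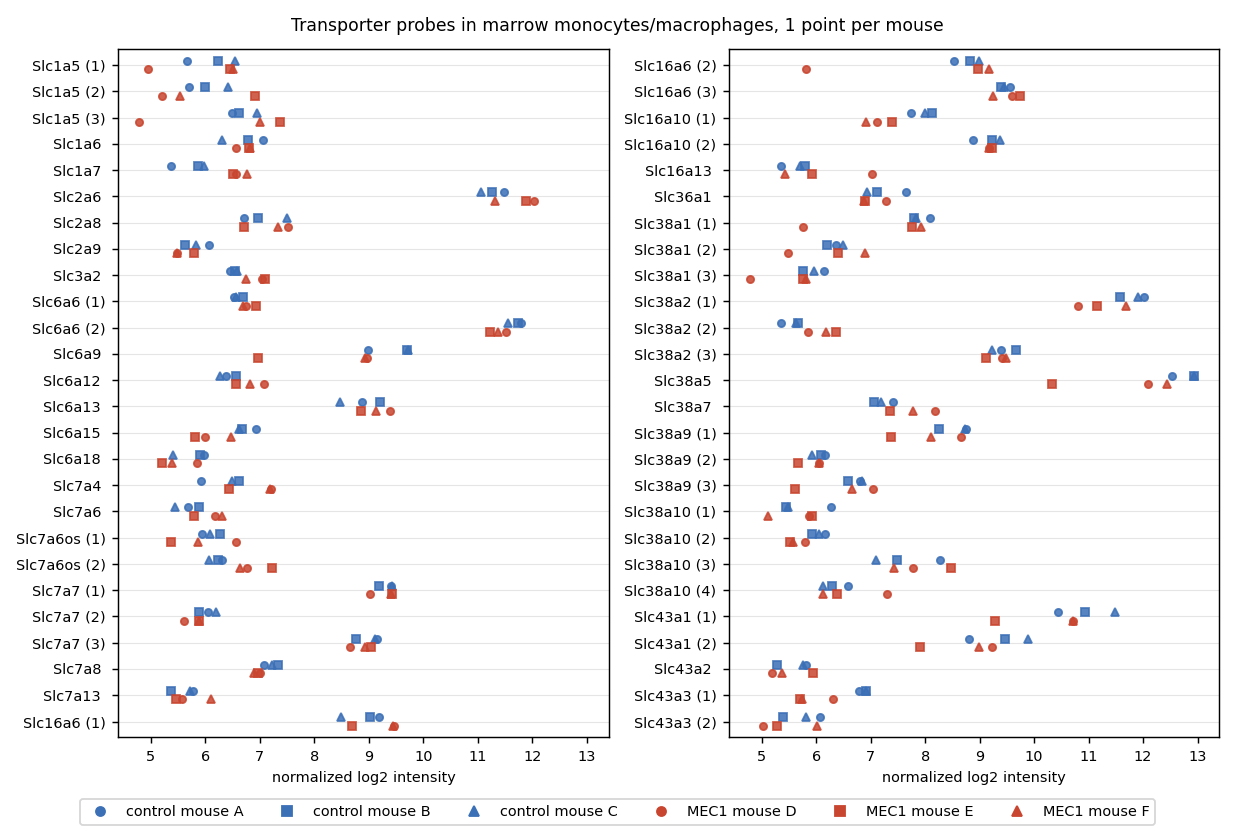
Normalized log2 intensity (horizontal axis) of the 52 tested probes, 1 point per mouse, with control mice in blue and MEC1 mice in red; numbers in brackets count probes of the same gene in order of their identifiers. Mouse D lies far to the left at Slc16a6 (2), Slc38a1 (1) and Slc1a5 (3), and mouse E at Slc38a5, Slc6a9 and Slc43a1.

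**Figure D2:**
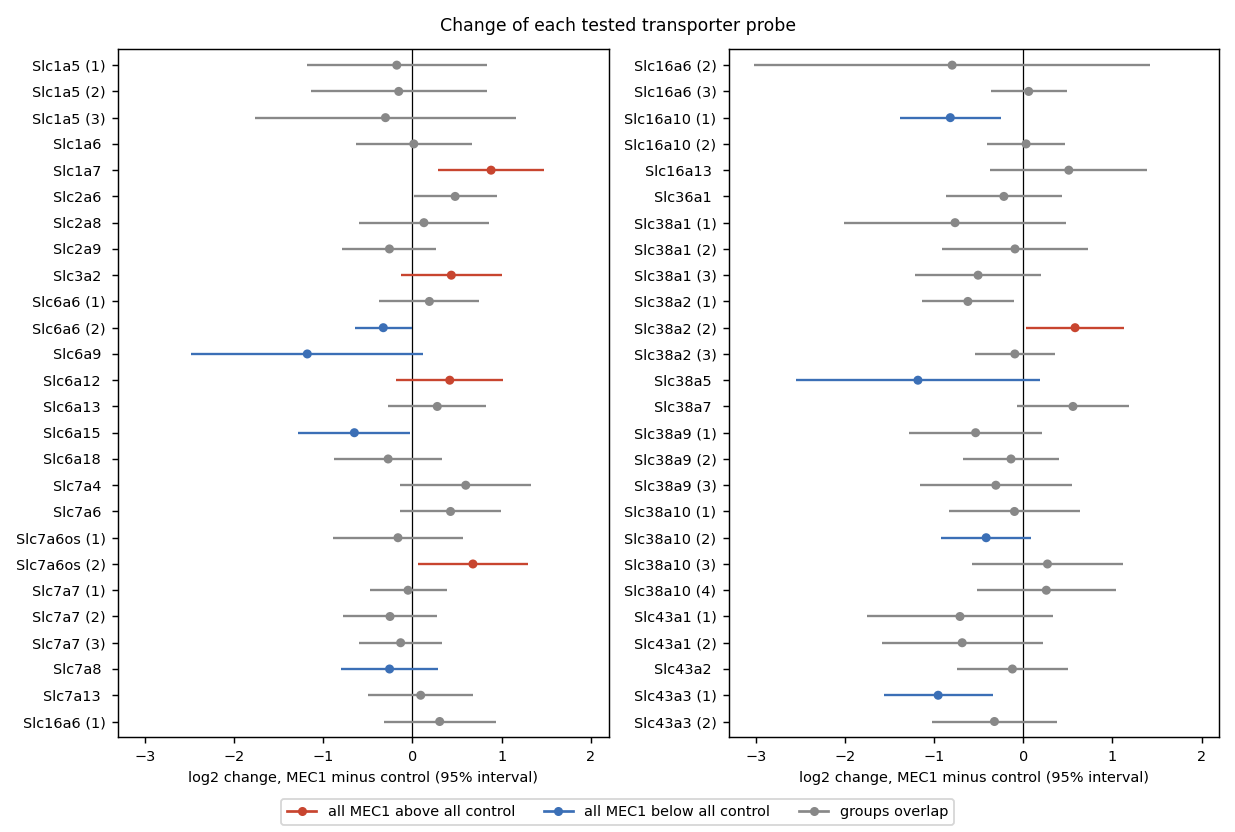
Log2 change of each tested probe, MEC1 minus control (horizontal axis), with its 95% interval from limma; colours show whether the 3 MEC1 values lie above, below or among the 3 control values. Changes run from -1.18 to 0.88, and no probe passed the test after adjustment.

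The sugar carriers of the Slc2 family were covered by 21 probes, of which 3 could be tested. Slc2a6 encodes GLUT6, a hexose carrier family member of intracellular membranes. It lay at 11.48, 11.26 and 11.06 in the controls (order A, B, C here and throughout) and at 12.04, 11.88 and 11.32 in the MEC1 mice (order D, E, F). Mice D and E were above all controls while mouse F lay among them. The log2 difference was 0.48 ± 0.21 (SE; 95% interval 0.01 to 0.94; limma adjusted p = 0.241). Slc2a8, the intracellular sugar carrier GLUT8, gave 0.13 (95% interval -0.60 to 0.86). Slc2a9, a urate carrier, gave -0.26 (95% interval -0.79 to 0.27) and was detected on 1 of 3 MEC1 arrays.

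Of the left-out carriers, Slc2a1, the GLUT1 glucose carrier of most cells, gave a log2 difference of 0.90 (limma adjusted p = 0.0905), and Slc2a3 gave -0.09. The limma adjusted p of Slc2a1 was 0.0166 without mouse D, 0.029 with array weights and 0.0166 to 0.412 over all alternatives. Of all tested probes 7.4% were called without mouse D and 3.53% with array weights, beside 1.54% in the main fit. Slc16a1, Slc16a3 and Slc7a11 were not tested, and Slc7a11 was detected at 1 of its 5 probes, on 2 MEC1 arrays.

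The monocarboxylate family Slc16 had 6 tested probes of 3 genes. Slc16a10 encodes TAT1, a carrier of aromatic amino acids. Its probe ILMN_1224202 lay at 7.74, 8.13 and 8.0 in control mice and 7.11, 7.39 and 6.91 in MEC1 mice. The groups did not overlap there, with a log2 difference of -0.82 ± 0.25 (SE; 95% interval -1.38 to -0.26; limma adjusted p = 0.137). The other probe of Slc16a10, ILMN_2439813, gave 8.87, 9.23 and 9.38 against 9.18, 9.23 and 9.16, a difference of 0.03 (95% interval -0.41 to 0.47). The lower values were thus those of 1 of 2 probes.

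Slc16a6 encodes MCT7, a ketone body carrier of the liver in zebrafish. Probe ILMN_3073406 read 8.52, 8.83 and 9.0 in control mice and 5.82, 8.97 and 9.17 in MEC1 mice, so that only mouse D was low and its spot was undetected. The other probes of Slc16a6 read 9.47 and 9.60 in mouse D, above their control means. Their log2 differences were 0.31 and 0.06, and that of the probe with the low value was -0.80 (95% interval -3.02 to 1.42), or 0.29 without mouse D. Slc16a13, a carrier of the same family, read 5.34, 5.79 and 5.70 in control mice and 7.01, 5.93 and 5.42 in MEC1 mice, and was detected on 2 arrays of each group. Mouse D alone was high, and the difference of 0.51 (95% interval -0.37 to 1.39) was 0.06 without it.

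None of the heteromeric exchanger subunits passed the test. Slc3a2, the CD98 heavy chain, lay at 6.45, 6.54 and 6.58 in control mice and 7.04, 7.10 and 6.74 in MEC1 mice. All MEC1 values were above all control values, but the log2 difference of 0.44 ± 0.25 (SE; 95% interval -0.13 to 1.01) had a limma adjusted p of 0.361. Slc7a7, the light chain y+LAT1 that exports arginine and lysine, had 3 tested probes with differences of -0.05, -0.13 and -0.25. Its probe ILMN_1240318 read 9.40, 9.19 and 9.42 in controls and 9.03, 9.43 and 9.40 in MEC1 mice, with a 95% interval of -0.48 to 0.38.

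The light chains Slc7a6 and Slc7a8 had intervals that spanned 0 as well. Slc7a6, which encodes y+LAT2, gave 0.43 (95% interval -0.14 to 1.0) and was detected on 1 control array and 3 MEC1 arrays. Slc7a8, which encodes the neutral amino acid exchanger LAT2, gave -0.26 (95% interval -0.80 to 0.28), with all MEC1 values (7.01, 6.96 and 6.89) below all control values (7.08, 7.33 and 7.22). Slc7a4, a family member with no settled substrate, gave 0.60 (95% interval -0.14 to 1.33). Of the letter matches, Slc7a6os gave 0.68 at one probe (limma adjusted p = 0.215) and -0.16 at the other.

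At the tested probes of the glutamine carriers Slc1a5 and Slc38a1 mouse D was the lowest mouse and the groups overlapped. Slc1a5 encodes ASCT2, a glutamine and neutral amino acid exchanger. Its probe ILMN_2776585 lay at 6.49, 6.62 and 6.96 in control mice and 4.78, 7.37 and 7.0 in MEC1 mice. The other tested probes of Slc1a5 had mouse D lowest too, at 4.94 and 5.2 against control values of 5.66 to 6.54. Their log2 differences were -0.30, -0.18 and -0.15, with 95% intervals as wide as -1.77 to 1.17. Without mouse D all 3 turned, to 0.50, 0.34 and 0.18. Probe ILMN_2593148 also turned without mouse F (0.02) or without control mouse C (0.03), and ILMN_1252970 without mouse C (0.02). At ILMN_2593148 mouse F, at 5.53, was below every control too, while mouse E, at 6.91, was above them. The 3 tested probes of Slc1a5 were detected on 2 or 3 control arrays and on 1 or 2 MEC1 arrays.

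Slc38a1, the glutamine carrier SNAT1, had the same array low at its tested probes. Its probe ILMN_1219573 read 8.08, 7.79 and 7.84 in control mice and 5.75, 7.75 and 7.91 in MEC1 mice. At all 3 tested probes of Slc38a1 mouse D was the lowest of the 6 mice. Those probes were detected on all control arrays but on 1 or 2 MEC1 arrays. The untested probe ILMN_2736140 went the other way, at 5.51, 5.24 and 5.36 in control mice and 5.75, 5.79 and 6.22 in MEC1 mice. There all MEC1 values, mouse D included, lay above all control values, with detection on 2 MEC1 arrays and no control array. Mouse D was lower than its fellow MEC1 mice at every tested probe of both genes, and mice E and F lay among or above the controls apart from 3 values slightly under the lowest control. The differences of Slc38a1 were -0.77, -0.51 and -0.09, and none passed. Without mouse D they were -0.07, -0.17 and 0.29. Mouse D also stood low at many other probes, and the part of that in these values was not tested.

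Slc38a2 encodes SNAT2, the glutamine and alanine carrier that cells induce on amino acid starvation, and its probes did not run together. Probe ILMN_1244123 gave 12.02, 11.57 and 11.90 in control mice and 10.80, 11.15 and 11.69 in MEC1 mice, a log2 difference of -0.62 ± 0.23 (SE; limma adjusted p = 0.189). Probe ILMN_2721692 gave 5.35, 5.67 and 5.62 against 5.85, 6.36 and 6.18, a difference of 0.58 ± 0.24 (SE; limma adjusted p = 0.234), and was detected on 1 control array. Probe ILMN_2955671 gave -0.09 (95% interval -0.54 to 0.35). No direction can therefore be given for the gene.

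**Figure D3:**
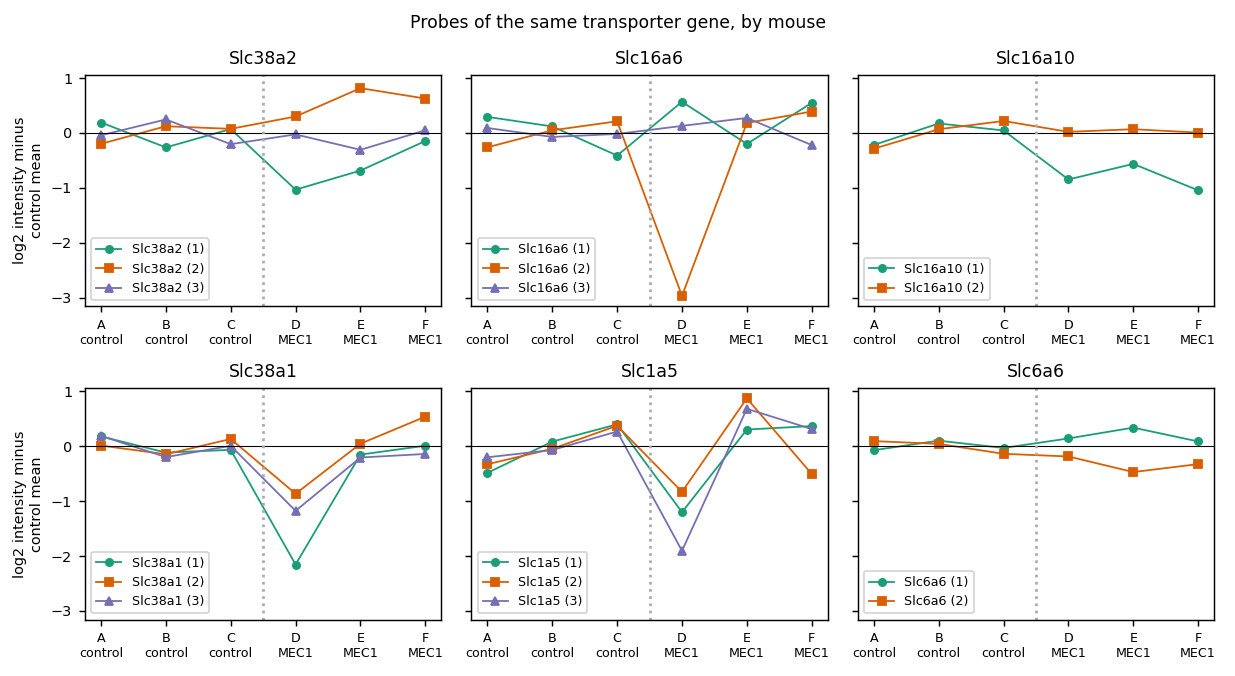
Log2 intensity of each tested probe minus its control mean (vertical axis), by mouse, for Slc38a2, Slc16a6, Slc16a10, Slc38a1, Slc1a5 and Slc6a6; each line is 1 probe. The probes of Slc1a5 and Slc38a1 share a low value in mouse D, the low value of Slc16a6 in mouse D belongs to 1 of 3 probes, and the probes of Slc38a2 lie on both sides of 0 in the MEC1 mice.

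Disagreement between probes was common. Of 12 symbols with several tested probes, 6 had probes on both sides of 0. The gap between the highest and lowest log2 difference reached 1.20 for Slc38a2, 1.10 for Slc16a6 and 0.85 for Slc16a10. It was 0.69 across the 4 probes of Slc38a10, one of which was detected on all control arrays and no MEC1 array, at least 1.18-fold lower (limma adjusted p = 0.332). The gap was 0.02 for the probes of Slc43a1, 0.15 for Slc1a5 and 0.20 for Slc7a7.

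Lysosomal carriers did not pass either. Slc38a9, the arginine sensor that passes lysosomal amino acid levels to mTORC1, had 3 tested probes with log2 differences of -0.53, -0.31 and -0.14. Probe ILMN_1242435 lay at 8.74, 8.26 and 8.73 in control mice and 8.65, 7.36 and 8.11 in MEC1 mice, with mouse E lowest. Slc36a1, a proton-coupled carrier that exports amino acids from lysosomes, gave -0.22 (95% interval -0.86 to 0.43). Slc38a7, which exports glutamine from lysosomes, gave 0.56 (95% interval -0.08 to 1.19), with control values of 7.41, 7.06 and 7.18 and MEC1 values of 8.19, 7.36 and 7.78.

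The largest differences by size were those of Slc38a5 and Slc6a9. Slc38a5 encodes the glutamine and glycine carrier SNAT5. It lay at 12.54, 12.93 and 12.94 in control mice and at 12.08, 10.34 and 12.44 in MEC1 mice. The groups did not overlap, mouse E was far the lowest, and control mouse A was the lowest control. The log2 difference was -1.18 ± 0.56 (SE; 95% interval -2.55 to 0.19; limma adjusted p = 0.306), and -0.54 without mouse E (limma adjusted p = 0.220).

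Slc6a9 encodes GlyT1, the glycine carrier that supplies haem synthesis in red cell precursors. It read 8.98, 9.69 and 9.72 in control mice and 8.96, 6.96 and 8.94 in MEC1 mice. Mouse E was again the lowest, and mice D and F lay just under control mouse A. The log2 difference was -1.18 ± 0.55 (SE; limma adjusted p = 0.287), and -0.52 without mouse E (limma adjusted p = 0.353). Slc43a1, the neutral amino acid carrier LAT3, also had mouse E lowest and mouse A as the lowest control at both probes. Probe ILMN_1229667 read 10.43, 10.94 and 11.48 in control mice and 10.71, 9.29 and 10.72 in MEC1 mice, a difference of -0.71 ± 0.44 (SE; limma adjusted p = 0.407), and the groups overlapped. Without mouse E the differences at its probes were -0.23 and -0.28.

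Erythroid markers ran the same way across the mice. The median of the 7 tested erythroid markers, relative to their control means, was -0.43, 0.13 and 0.33 in the controls. The MEC1 mice gave -0.51, -1.76 and -0.37. Mouse E was thus the lowest MEC1 mouse and mouse A the lowest control in this list as in the 3 carriers. Mouse E was also the lowest of all mice at 27.6% of all tested probes and at 14 tested members. Those members include the 3 tested probes of Slc38a9, so a low mouse E is not particular to these carriers. The 3 carriers are the genes with a member probe at which mouse E lay more than 1 log2 unit below all other arrays. Alas2, the first enzyme of haem synthesis in red cells, read 10.84, 11.55 and 11.69 in controls and 10.99, 9.60 and 10.74 in MEC1 mice. None of the 7 markers was called, all 7 had a log2 change below 0, and their median was -0.91. The part of erythroid RNA in the values of Slc38a5, Slc6a9 and Slc43a1 was not tested.

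**Figure D4:**
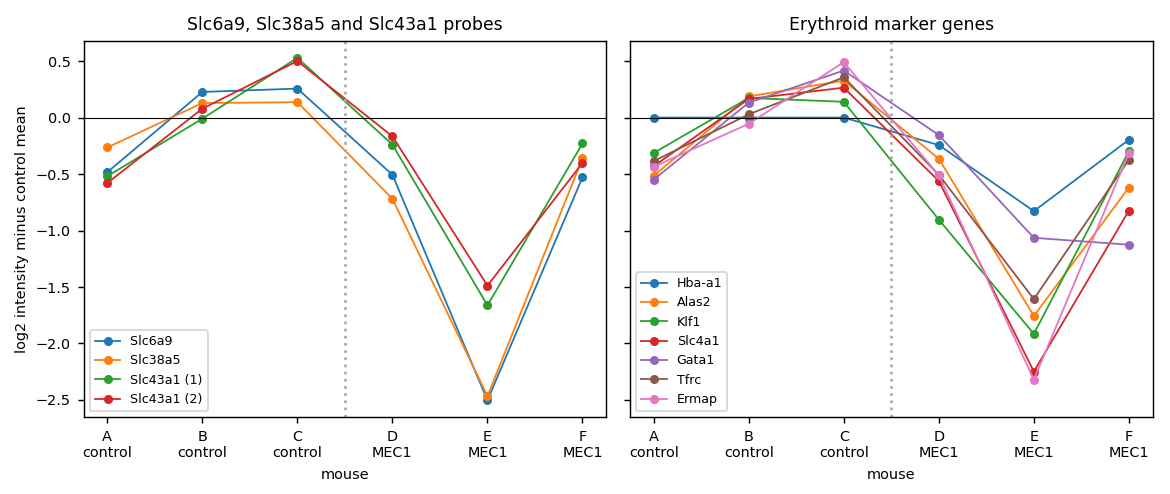
Log2 intensity minus the control mean (vertical axis) by mouse, for the probes of Slc6a9, Slc38a5 and Slc43a1 (left) and for 7 erythroid marker genes (right); each line is 1 probe. Mouse E is the lowest of the 6 mice in every line but that of Gata1, where mouse F is slightly lower. Mouse A is the lowest control except for Hba-a1, which quantile normalization sets to the same value on all 3 control arrays.

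Because Slc38a5, Slc6a9 and Slc43a1 shared mouse E as their lowest mouse, their upstream sequence was searched, from RefSeq on GRCm38.p6. It is shown for Slc38a5 and Slc43a1. The stretches are the 250 bases before the single start listed for each gene, chrX:8271131-8271380 and chr2:84840073-84840322, both on the plus strand. Capitals mark matches to CCNCNCCCN on either strand, a word bound by the erythroid Krüppel-like factor Klf1. The sequence of Slc6a9, with 3 listed starts, is not printed.
Slc38a5: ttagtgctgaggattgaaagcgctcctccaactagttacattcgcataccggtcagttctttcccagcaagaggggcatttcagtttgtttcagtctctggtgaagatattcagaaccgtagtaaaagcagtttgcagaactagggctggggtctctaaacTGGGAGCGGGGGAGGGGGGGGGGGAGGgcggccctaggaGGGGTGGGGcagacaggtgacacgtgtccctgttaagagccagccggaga
Slc43a1: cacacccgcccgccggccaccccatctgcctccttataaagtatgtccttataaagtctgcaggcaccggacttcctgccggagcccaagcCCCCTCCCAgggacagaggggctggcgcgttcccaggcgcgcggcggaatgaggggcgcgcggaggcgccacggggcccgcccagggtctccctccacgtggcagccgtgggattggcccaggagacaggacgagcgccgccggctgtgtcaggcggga

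The search covered 300 bases, from 250 before to 50 after a start. CCNCNCCCN occurred 10 times for Slc38a5, mostly overlapping in a run of G, and 1 time for Slc43a1. At the 3 starts of Slc6a9 it occurred 4, 3 and 1 times, and 49.4% of 32841 such windows held it. The GATA words searched were AGATAA or else AGATAG, with TGATAA or else TGATAG as well. On either strand they occurred 1 time for Slc38a5, at base 15 after the start, and in no window of Slc43a1 or Slc6a9, beside 29.8% of all windows. The GATA word did not overlap a CCNCNCCCN match. These are letter matches in short windows, and no binding was measured.

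The remaining members included the nearest to a call. Slc43a3, a carrier of purine nucleobases, lay at 6.78, 6.92 and 6.91 in control mice and 6.31, 5.70 and 5.73 in MEC1 mice at probe ILMN_1256416. The groups did not overlap, and the probe was detected on all control arrays but on 1 MEC1 array. The log2 difference was -0.95 ± 0.27 (SE; 95% interval -1.56 to -0.35; limma adjusted p = 0.122). Without mouse D it was -1.15 with a limma adjusted p of 0.0185, within a range of 0.00996 to 0.370 over all alternatives. In the fit without mouse D 7.4% of all tested probes were called, beside 1.54% in the main fit. The second tested probe of Slc43a3 gave -0.32 (95% interval -1.03 to 0.38). Slc43a2, the neutral amino acid carrier LAT4, gave -0.12.

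Slc1a7, which encodes the glutamate carrier EAAT5 known from the retina, was the highest by log2 difference. It read 5.36, 5.87 and 5.97 in control mice and 6.56, 6.52 and 6.77 in MEC1 mice, a difference of 0.88 ± 0.26 (SE; 95% interval 0.29 to 1.48; limma adjusted p = 0.133). All MEC1 values were above all control values, and 2 of 3 control arrays detected the probe. Slc6a6, the taurine carrier, read 11.79, 11.74 and 11.56 against 11.51, 11.23 and 11.37 at probe ILMN_2641467, without overlap (-0.33, limma adjusted p = 0.241). Its other probe gave 0.19 (95% interval -0.37 to 0.75). Slc6a15, a carrier of branched-chain amino acids, gave -0.65 (limma adjusted p = 0.239), and Slc6a12, the betaine and GABA carrier, gave 0.42 (limma adjusted p = 0.402), both without overlap of the groups.

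Genes that act around these carriers were counted by list, with 1 probe per gene, beside a background of 1.74% of 9089 genes called (0.946% higher and 0.792% lower). Among sugar-trapping enzymes and carrier chaperones 1 of 6 tested genes was called. That gene was Txnip, an arrestin-like protein that lowers glucose uptake and is itself induced by glucose. Txnip read 13.36, 13.41 and 13.17 in control mice and 12.70, 12.57 and 12.46 in MEC1 mice, and fell by 0.73 on the log2 scale (limma adjusted p = 0.0249). Its second probe fell by 0.81 (limma adjusted p = 0.0372). The call at the first probe was lost without any 1 of mice A, B, C, E or F and without trend and robust moderation, with adjusted p-values of 0.00419 to 0.168 over the alternatives. Arrdc4, a relative of Txnip, gave -0.66 (limma adjusted p = 0.0945), the hexokinase Hk3 gave 0.19 and the carrier chaperone Emb -0.05, and the list's median was -0.02.

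In the list of lysosomal amino acid sensing, 1 of 17 tested genes was called, in the lower direction. Castor1, the cytosolic arginine sensor of mTORC1, read 8.23, 8.10 and 7.95 in control mice and 6.86, 6.97 and 6.10 in MEC1 mice, and fell by 1.46 on the log2 scale (limma adjusted p = 0.0496). Over the alternatives its adjusted p ran from 0.00126 to 0.242, and the call was lost without any 1 of mice A, B, C, E or F, under the stricter filter and without trend and robust moderation. Sesn1, which encodes sestrin 1, gave -0.86, and Flcn, which encodes folliculin, gave -0.73 (limma adjusted p = 0.0964 and 0.105). Lamtor1, a lysosomal scaffold of mTORC1, gave 0.78 (limma adjusted p = 0.121), and the list's median was 0.04.

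None of 15 tested genes of the amino acid response driven by the transcription factor ATF4 was called in the fit of all mice. Nupr1, a stress-induced chromatin protein, came nearest, at 0.82 (limma adjusted p = 0.0738), while Atf4 gave 0.04, the asparagine synthetase gene Asns -0.55 and the one-carbon enzyme gene Mthfd2 0.35. Ddit3 of the same list gave -0.44 (limma adjusted p = 0.244), with all MEC1 values below all control values. At Nupr1 and Mthfd2 all MEC1 values were above all control values. The list's median of 0.00 was the value of Phgdh, a list gene with a low value in mouse D that is described further below. Without mouse D Phgdh gave 1.41 and Psat1, also of the list, gave 0.58 (limma adjusted p = 0.00541 and 0.0444). In that fit both were thus called higher, beside 7.4% of all tested probes called. None of 5 tested genes of arginine, glutamine and tryptophan use was called, with a median of -0.16. The arginine synthesis gene Ass1 gave 0.78 (limma adjusted p = 0.0776), the ornithine decarboxylase gene Odc1 -0.37 and the arginase gene Arg2 -0.64. Arg1 and Nos2, which compete for arginine, were detected on no array.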

How the data were processed

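Each array has, per the file headers, an intensity column (mean signal) and a column of the detection p-value in the table that the authors left unnormalized. GenomeStudio is named, per the submitters' processing notes, without a version. The deposited intensity values of a second table, the series matrix, match quantile normalization without background correction (largest gap 3.17%), a step no label states, and served only as an alternative.

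Intensities were corrected and quantile-normalized with neqc in limma 3.58.1 (R 4.3.3, offset 16, which shrinks changes of dim probes). Probes detected on 3 or more of 6 arrays (p-value under 0.05) entered lmFit and eBayes with trend and robust variance, as two-sided tests with Benjamini-Hochberg adjustment over 16460 probes. Log2 changes are MEC1 minus control. SE is the moderated standard error. A fold for a probe undetected in a group is a lower bound against the lowest normalized value among each array's detected probes. Probes were named from the platform annotation, with symbols updated through the RefSeq gene table (34807 of 34885 named probes matched). For lists, the tested probe with the highest mean stood for a gene. The other tested probes of Sesn1, Asns and Lyz2 (2 each) and of Flcn, Ddit3, Mthfd2, Atf4 and Cd79b (1 each) are not described. The steps were tested on simulated arrays.

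Members and lists were chosen with earlier results of these data known. Named probes are those whose groups do not overlap, up to 8 per direction by size, the 10 with the highest mean, and tested probes of a fixed set of carriers. Slc7a4, Slc38a7 and the further probes of Slc38a10 and Slc7a6os lie outside that rule and were chosen after their values were seen. Among list genes, those called and a few more with the smallest p were named. Atf4, Asns, Phgdh and Psat1 were named besides. Alternatives covered scaling, background, offset, filter, moderation, array weights and each mouse left out. Letters name mice and are not shared between groups, so nothing was paired.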

Additional observations from a re-analysis of the deposited data

How the results depend on the processing

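No member was called higher under any alternative. When arrays were scaled by their medians instead, the members' median was -0.50 and that over all tested probes was -0.48. That scaling called 2111 probes in all and 5 members lower, or 9.62% of members beside 12.8% of all tested probes, with 8 list genes called. There 21 members had groups without overlap, all lower, or 40.4% beside 39.1% of all tested probes (36.5% lower). The members called there were Slc16a10, Slc38a1, Slc6a15, Slc38a2 and Slc43a3, at 1 probe each. Array weights called 581 probes, or 3.53% of all tested probes, 1 member lower (Slc43a3, or 1.92% of members) and 5 list genes. Moderation without trend and robust variance called 95 probes and 0 list genes (limma), and the stricter filter left 1 list gene. Without a filter 23 of the 153 members had groups that did not overlap, or 15.0% beside 20.2% of all probes. Leaving out 1 mouse at a time gave 5 to 1218 called probes, 0 to 1 members lower, 15 to 21 members without overlap (28.8% to 40.4%, beside 34.1% to 43.6% of all tested probes) and 0 to 8 list genes. Without mouse D 1218 probes, or 7.4% of all tested probes, and Slc43a3, or 1.92% of members, were called, both the highest of these counts. The cause was not tested. The offset of 50, the authors' processed table and the mean over a gene's probes changed no count of calls by over 1.5 times. The number of arrays limits the precision, and 89 members were never above background.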

Other observations

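The low value of mouse D at the tested probes of Slc1a5 and Slc38a1 was shared by Phgdh, the first enzyme of serine synthesis. Phgdh belongs to the ATF4 list above and was singled out after its values were seen. Phgdh read 8.34, 8.61 and 8.35 in the controls (A, B, C) and 5.63, 10.12 and 9.56 in the MEC1 mice (D, E, F). Mice E and F were above all controls and mouse D below them. Its log2 difference was 0.00 in the fit of all mice and 1.41 without mouse D (limma adjusted p = 0.999 and 0.00541, within 0.00541 to 0.999 over the alternatives). Psat1, the next enzyme of that pathway, had no such low value in mouse D and read 11.05, 11.09 and 10.95 in control mice and 11.05, 11.54 and 11.70 in MEC1 mice. It belongs to the ATF4 list too, with a log2 difference of 0.39 in the fit of all mice and 0.58 without mouse D. The limma adjusted p-values were 0.27 and 0.0444, within 0.0444 to 0.838 over the alternatives.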
